A study of Homo sapiens with 12 samples.

Results

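The genes described are 10 that make, restrain or break down polyamines, taken as the rows of the count table whose Ensembl identifiers map to ODC1, AZIN1, OAZ1, OAZ2, SRM, SMS, AMD1, SAT1, SMOX and PAOX. Each symbol matched 1 row, so they are 10 of 60664 genes in the table. They were chosen by name, from the biochemistry downstream of ornithine, and not by their values in a contrast. Earlier results of these data were known when they were chosen. Poly(A) RNA was sequenced from a pair of human B-cell acute lymphoblastic leukaemia lines, TOM-1, which carries the Philadelphia chromosome, and RS4;11, which carries a KMT2A rearrangement. Both lines are labelled wild type and were grown in RPMI with fetal bovine serum. Each was sampled in steady-state culture (control) and after 24 hours with ADI-PEG20 at 1000 ng/ml, a pegylated arginine deiminase that converts the arginine of the medium to citrulline. This gave 4 groups of 3 libraries, 12 in all. Each genotype is thus represented by 1 established cell line. The labels do not say whether replicates were separate cultures, so the p-values measure the spread between libraries, which may be technical.

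Polyamines (putrescine, spermidine and spermine) are small cations that bind RNA and DNA and are needed for growth. Ornithine, which arginase makes from arginine, is decarboxylated to putrescine by ornithine decarboxylase (ODC1), and aminopropyl groups from decarboxylated S-adenosylmethionine, the product of AMD1, are then added by spermidine synthase (SRM) and spermine synthase (SMS). Antizymes (OAZ1, OAZ2) bind ODC1 protein and send it to the proteasome, the antizyme inhibitor AZIN1 takes antizyme away from ODC1, and SAT1, PAOX and SMOX acetylate and oxidise polyamines. Much of this control acts on translation and protein stability, which counts of RNA do not measure.

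Sequence elements through which these genes are known to be controlled are shown first, since the levels below concern the RNAs that carry them. OAZ1 and OAZ2 hold their reading frame in 2 pieces, and polyamines favour a +1 frameshift that joins them. The 61 coding bases around the site, read from GENCODE release 29 transcripts on GRCh38, are given with the last codon of the first frame and the stop codon after it in capitals. Translation skips the first T of that stop codon, which lies at chr19 position 2271443 (plus strand) in OAZ1 and at chr15 position 64691515 (minus strand) in OAZ2. The sites share 49 of 61 bases, with an unbroken identical run of 27 bases across the frameshift.
OAZ1: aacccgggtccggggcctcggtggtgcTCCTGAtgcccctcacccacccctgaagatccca
OAZ2: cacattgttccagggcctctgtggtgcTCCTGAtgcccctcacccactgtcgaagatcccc
AMD1 has a short upstream open reading frame in its 5′ UTR, of 6 sense codons and a stop codon, at which polyamines are known to stall ribosomes. It lies at chr6:110874796-110874816 on the plus strand and is shown from its start codon to its stop codon.
AMD1: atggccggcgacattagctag

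The E-box CACGTG, the sequence bound by MYC with MAX, was searched in RefSeq windows (GRCh38.p14) from 250 bases before to 50 bases after each start. The letters are their own reverse complement, so both strands were read at once. Such windows were at hand for 7 of the 10 genes (ODC1, OAZ1, OAZ2, SRM, SMS, SAT1 and AMD1), 10 windows in all, and 2 genes held the motif, SRM and ODC1. Among all genes with a window 8.77% held it, and 7.26% of all 35116 windows. The 250 bases before the SRM start, chr1:11060019-11060268 (minus strand), hold it once, beginning 199 bases upstream. The second ODC1 start has it on either side, at -29 and +6, shown in 80 bases at chr2:10447993-10448072 (minus strand). Relative to transcript ODC1-201 both lie in intron 1, beginning 463 and 497 bases downstream of its start. The E-boxes are in capitals. A match in these windows is a description of the letters, and binding was not measured here.
SRM: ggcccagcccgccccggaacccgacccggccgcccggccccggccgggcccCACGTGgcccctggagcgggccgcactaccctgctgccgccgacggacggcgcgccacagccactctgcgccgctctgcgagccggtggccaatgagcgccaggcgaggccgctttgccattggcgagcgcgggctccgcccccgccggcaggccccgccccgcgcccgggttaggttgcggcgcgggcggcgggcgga
ODC1: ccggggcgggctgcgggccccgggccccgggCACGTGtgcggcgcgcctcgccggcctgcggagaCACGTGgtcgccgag
The core of the amino acid response element, TGATGCAA, searched on both strands, was in 0.866% of all windows and in none of the 10 windows of these genes.

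Total counts ran from 18958144 to 35956959 per library. TOM-1 control replicate 3 stood apart from the rest: 14963 genes had a count in it, against 19857 to 21997 in the others, and ribosomal protein genes took 19.7% of its counts, against 8.95% and 9.21% in the other TOM-1 controls. All 7 markers of the B lineage were detected in every group, markers of T cells (CD3D, CD3E, CD3G, CD2) summed to at most 0.319 CPM (counts scaled to library size by TMM) and erythroid markers to at most 0.257 CPM. Myeloid markers summed to between 10.2 and 26.7 CPM. HOXA9 and MEIS1, which mark KMT2A-rearranged leukaemia, had 0 counts in TOM-1 and summed to 140 to 159 CPM in RS4;11. Because replicate 3 is 1 of 3 TOM-1 controls, log2 fold changes that use it are given with all 12 libraries and without it.

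Among the 10 genes, the departure of that library went with gene length. On the log2 CPM scale, replicate 3 was above the mean of the other TOM-1 controls for all 7 genes with 1898 to 3436 bp of annotated exon, from 0.25 (ODC1) to 1.51 (PAOX). It was below them for the 3 genes with 6426 to 7671 bp, by -0.33 (OAZ2), -0.47 (AMD1) and -0.86 (AZIN1). Over all genes the median departure was 0 under 2000 bp, 0.11 at 2000 to 4000 bp, -0.16 at 4000 to 6000 bp, -0.47 at 6000 to 8000 bp and -0.81 over 8000 bp. All 7 shorter genes lay above the median of their own length class, SRM (1898 bp, 1.17) among them. Of the 3 longer ones, AZIN1 lay below its class median of -0.47, OAZ2 above it and AMD1 at it. What made this library differ was not tested.

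**Figure D1:**
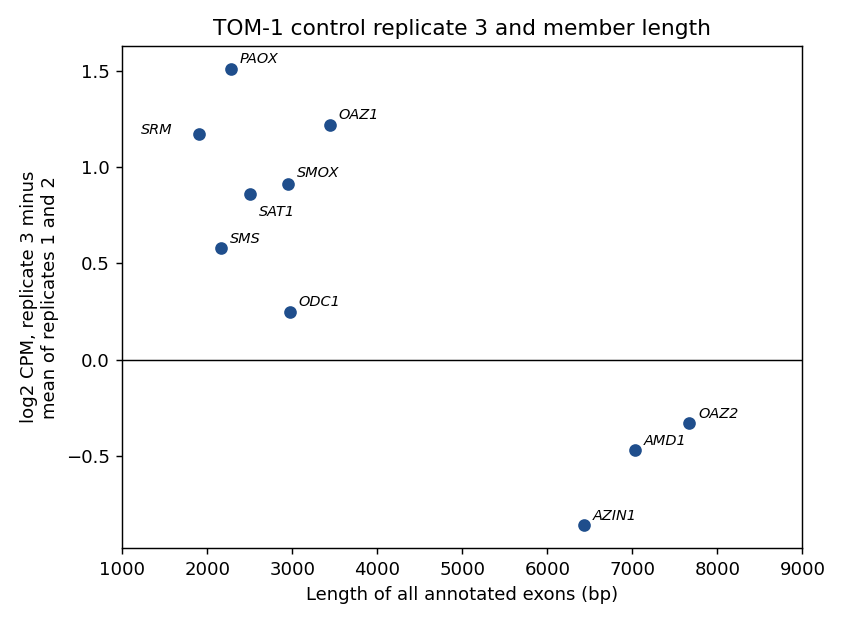
Departure of TOM-1 control replicate 3 (log2 CPM minus the mean of replicates 1 and 2, y axis) against the length of all annotated exons in bp (x axis), 1 point per gene. The 7 genes between 1898 and 3436 bp lie above 0 and the 3 between 6426 and 7671 bp lie below it.

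Per kilobase of the principal transcript, OAZ1 RNA led in every group. In TOM-1 control replicates 1 and 2 the order was OAZ1 (459 CPM per kb), ODC1 (238), SMS (157), SRM (110), AMD1 (61.4), AZIN1 (51.8), OAZ2 (39.7), SAT1 (34.3), SMOX (4.33) and PAOX (0.732), and the libraries of neighbours in that order did not overlap. In RS4;11 control OAZ1 stood at 604 CPM per kb, followed by SRM (209) and ODC1 (201), whose libraries overlapped. SAT1 (15.9), SMOX (3.43) and PAOX (1.86) were last there too. After ADI-PEG20 in TOM-1, SRM (54.1) lay level with SAT1 (57.8) and AZIN1 (57.5), with overlapping libraries. These orders depend on the length used. Per kilobase of all annotated exons, ODC1 (213 CPM per kb) stood above OAZ1 (153) in TOM-1 control replicates 1 and 2. By that length SRM (36.1) lay below AZIN1 (42.3) and above SAT1 (24.7) after ADI-PEG20 in TOM-1, without overlap.

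In TOM-1, RNAs of 3 synthetic enzymes, AMD1, SRM and SMS, and of both antizymes fell with ADI-PEG20. AMD1 and SRM fell to about the same extent once replicate 3 was set aside, by 1.07 and 1.03 on the log2 scale. ODC1, the first enzyme of the pathway, did not pass the test, nor did its antizyme inhibitor AZIN1. The breakdown enzymes SAT1, SMOX and PAOX did not pass with all libraries and rose in the fit without replicate 3. In RS4;11 none of the 10 genes passed the test.

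The gene coordinates below are from GENCODE release 29 on GRCh38. AMD1 (chr6:110874770-110895713, plus strand) makes decarboxylated S-adenosylmethionine, the aminopropyl donor. Its level was 223, 199 and 152 CPM in TOM-1 control replicates 1 to 3, and 99.6, 108 and 94.9 CPM with ADI-PEG20. Each treated library lay below each control, the third control included. The log2 fold change was -0.92 (SE 0.14, edgeR adjusted p = 0.000501), and without replicate 3 it was -1.07 (SE 0.076, edgeR adjusted p = 1.96e-10).

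SRM (chr1:11054584-11060024, minus strand), which makes spermidine, was at 135, 145 and 315 CPM in TOM-1 controls and at 65.7, 72.3 and 67.4 CPM after ADI-PEG20. The groups did not overlap, and the third control stood well above the others. The log2 fold change was -1.53 (SE 0.26, edgeR adjusted p = 0.00102). Without the third control it was -1.03 (SE 0.066, edgeR adjusted p = 4.64e-11).

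SMS (chrX:21940573-21994835, plus strand), which makes spermine, was at 288, 288 and 430 CPM in TOM-1 controls and at 208, 199 and 190 CPM after ADI-PEG20. All 3 treated libraries were lower than the controls. The treated-to-control log2 ratio was -0.75 (SE 0.15, edgeR adjusted p = 0.00294) and -0.53 without replicate 3 (SE 0.067, edgeR adjusted p = 8.79e-07). AMD1, SRM and SMS passed the test in each of the 12 fits that left out 1 library.

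RNA of ODC1 (chr2:10439968-10448504, minus strand) was at 633, 628 and 750 CPM in TOM-1 controls and at 608, 600 and 571 CPM after ADI-PEG20. The treated libraries were all below the controls, by a margin that was small beside the other synthetic genes. Its log2 fold change was -0.18 (SE 0.1, edgeR adjusted p = 0.217) and -0.09 without replicate 3 (SE 0.055, edgeR adjusted p = 0.208), and it passed the test in none of the fits that left out 1 library.

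The antizyme OAZ1 (chr19:2269509-2273490, plus strand) was at 526, 528 and 1224 CPM in TOM-1 controls and at 389, 410 and 388 CPM after ADI-PEG20. The groups did not overlap. The log2 fold change was -0.94 (SE 0.26, edgeR adjusted p = 0.0167) and -0.42 without replicate 3 (SE 0.056, edgeR adjusted p = 2.5e-06), a smaller estimate with a smaller error. With the third control kept, OAZ1 lost its call when treated replicate 1 or 3 was left out (highest edgeR adjusted p 0.0526) and in a fit on the 6 TOM-1 libraries alone (edgeR adjusted p = 0.102).

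OAZ2 (chr15:64687573-64703281, minus strand), the second antizyme, was at 73.9, 79.6 and 61.2 CPM in TOM-1 controls and at 45.7, 54.2 and 45.5 CPM after ADI-PEG20. Again no treated library reached a control. Its log2 ratio, treated to control, was -0.56 (SE 0.13, edgeR adjusted p = 0.00576) and -0.66 without replicate 3 (SE 0.089, edgeR adjusted p = 2.44e-06). OAZ2 kept its call in all 12 fits with 1 library left out. Annotated overlaps cover less than 10% of the exonic bases of each of the 10 genes on either strand taken alone. For OAZ1 they cover 6.4% on the same strand and 6.9% on the opposite one.

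AZIN1, which shields ODC1 from antizyme, was at 255, 234 and 135 CPM in TOM-1 controls and at 276, 270 and 269 CPM after ADI-PEG20. The treated libraries were higher than every control, narrowly so for the first. The log2 fold change was 0.38 (SE 0.19, edgeR adjusted p = 0.137) and 0.15 without replicate 3 (SE 0.062, edgeR adjusted p = 0.0615). Without replicates 1 and 3 of the control the adjusted p with edgeR was 0.0498, in a fit that leaves 1 TOM-1 control and assumes that it varies like the other groups.

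SAT1 (chrX:23783173-23786226, plus strand), the rate-limiting acetyltransferase of polyamine breakdown, was at 33.7, 39.3 and 66.3 CPM in TOM-1 controls and at 58.6, 66.4 and 59.8 CPM after ADI-PEG20. The treated libraries lay above the first and second controls and overlapped with the third. With treatment the log2 fold change was 0.41 (SE 0.22, edgeR adjusted p = 0.176) with all libraries and 0.75 without replicate 3 (SE 0.12, edgeR adjusted p = 1.91e-05).

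SMOX (chr20:4120980-4187747, plus strand), which oxidises spermine directly, was at 8.64, 10.7 and 18.1 CPM in TOM-1 controls and at 19.9, 17.5 and 18.2 CPM after ADI-PEG20. The third control fell among the treated libraries. The log2 fold change was 0.58 (SE 0.27, edgeR adjusted p = 0.13), and 0.94 without that control (SE 0.2, edgeR adjusted p = 0.000682).

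PAOX (chr10:133379234-133391694, plus strand), which oxidises acetylated polyamines, was the scarcest of the 10, with 34 to 107 counts in TOM-1 libraries. It was at 0.966, 1.75 and 3.86 CPM in controls and at 3.47, 4.09 and 3.78 CPM after ADI-PEG20, so the third control again overlapped with the treated group. Its log2 fold change was 0.81 (SE 0.45, edgeR adjusted p = 0.197) and 1.48 without replicate 3 (SE 0.39, edgeR adjusted p = 0.00332). With 1 further TOM-1 library removed, SAT1 and SMOX passed in 5 of 5 fits and PAOX in 4 of 5, losing its call without control replicate 1 (edgeR adjusted p = 0.0745). Of these 5 fits, 2 leave 1 TOM-1 control, which is assumed to vary like the other groups. The rise of the breakdown genes therefore rests on setting replicate 3 aside, a choice made after its values were known.

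**Figure D2:**
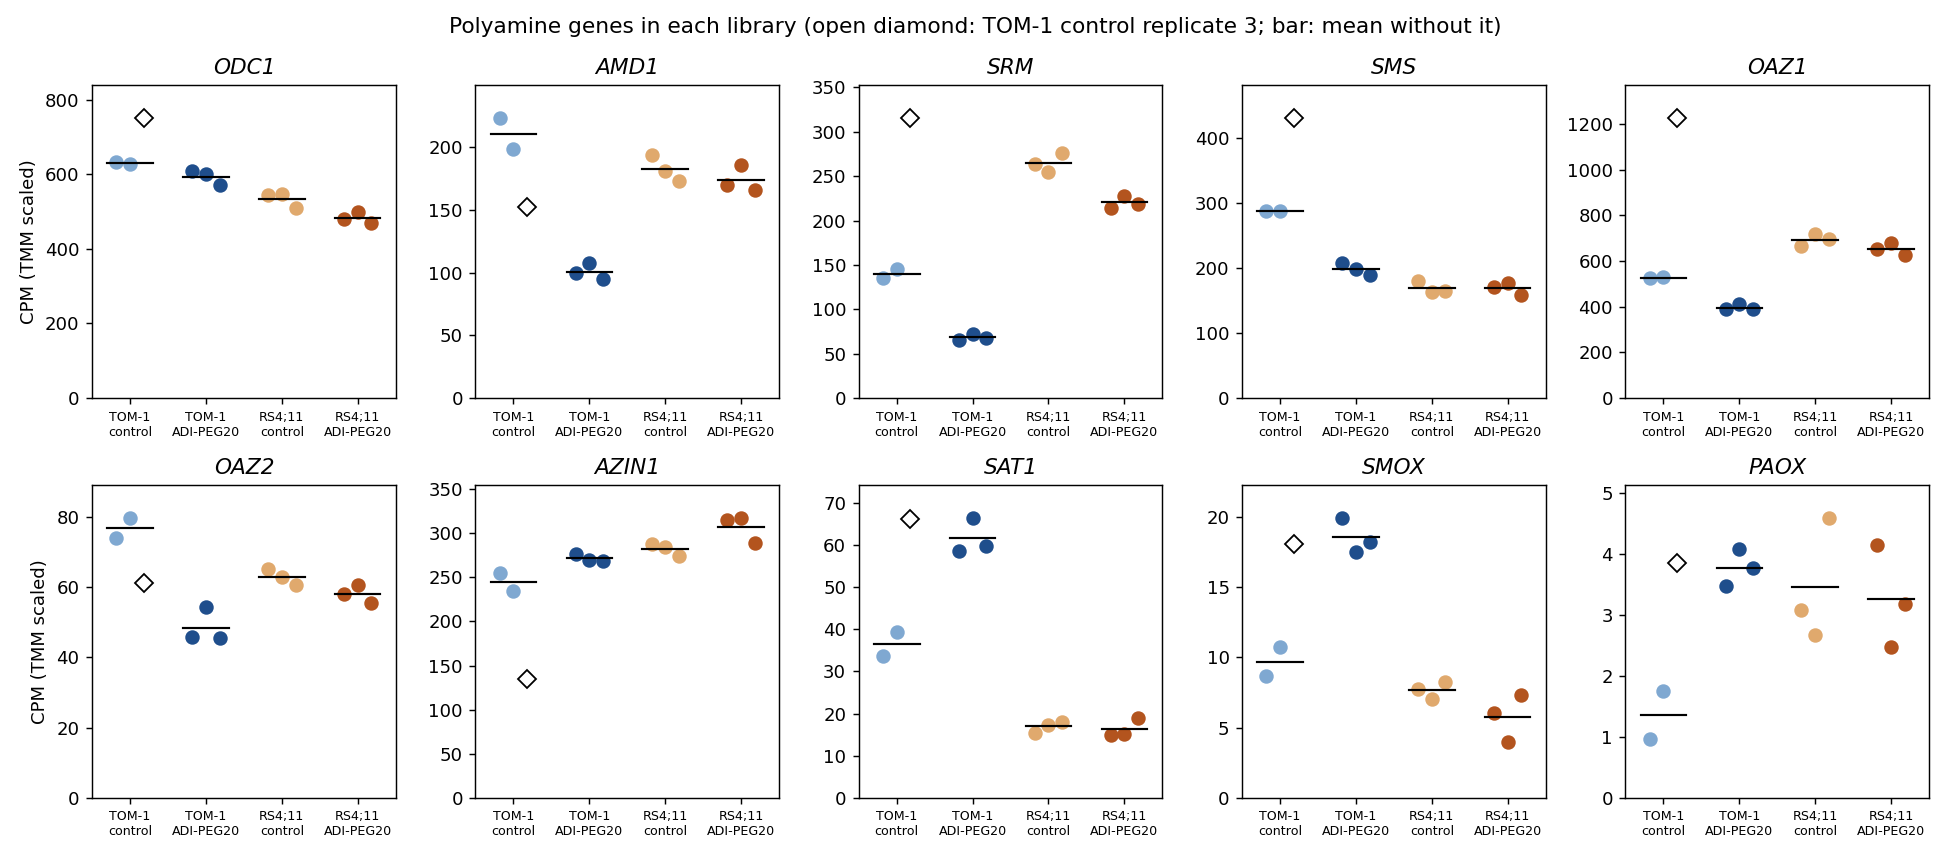
CPM (TMM scaled, linear y axes from 0) of each gene in every library, by group. The open diamond is TOM-1 control replicate 3 and the bar is the group mean without it. For AMD1, SRM, SMS, OAZ1 and OAZ2 all 3 treated TOM-1 libraries lie below all TOM-1 controls, whereas for SAT1, SMOX and PAOX the diamond sits among the treated libraries.

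By count, 5 of the 10 genes passed the test in TOM-1, all lower, where 31.9% of all 17349 genes tested passed in either direction and 15.9% were lower. Without replicate 3, 8 of 10 passed, 5 lower and 3 higher, where 41.6% of 18321 genes passed, 19.8% lower and 21.8% higher. The median log2 fold change of the 10 was -0.37, against 0.0476 over all genes, and without replicate 3 it was -0.25 against 0.00171. In that second fit 8.53% of all genes had a lower log2 fold change than AMD1 and 9.14% a lower one than SRM, while 8.41% had a higher one than PAOX, 15.4% than SMOX and 19.5% than SAT1. AMD1, SRM and PAOX thus lay nearest to the ends of the distribution. In bulk RNA scaled to the library total, fewer cells carrying a transcript and less of it per cell cannot be told apart.

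In RS4;11, log2 fold changes without TOM-1 control replicate 3 ran from -0.41 (SMOX) to 0.12 (AZIN1), and SRM had the lowest adjusted p. SRM was at 264, 255 and 276 CPM in controls and at 214, 228 and 219 CPM after ADI-PEG20. Its groups did not overlap, with a log2 fold change of -0.27 (SE 0.25 with all 12 libraries, edgeR adjusted p = 1, and SE 0.059 without TOM-1 control replicate 3, edgeR adjusted p = 0.0513). The shared spread estimate of the model narrows when the departing TOM-1 library is left out, and SRM passed there with DESeq2 (adjusted p = 0.000828). In that DESeq2 fit 4.94% of the 8245 genes with an adjusted p passed in RS4;11. With all 12 libraries SRM passed with neither tool.

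ODC1 in RS4;11 was at 544, 547 and 511 CPM in controls and at 480, 500 and 469 CPM after ADI-PEG20, and AZIN1 at 288, 284 and 274 CPM against 315, 317 and 289 CPM. ODC1 libraries were all lower and AZIN1 libraries all higher with treatment, without overlap. Neither passed (log2 fold change -0.15, edgeR adjusted p = 0.198, and 0.12, edgeR adjusted p = 0.376, without TOM-1 control replicate 3). The other 7 overlapped between groups. How many of all genes separate in this way was not counted. The separation of SRM, ODC1 and AZIN1 is therefore not read as a response. AMD1 was at 194, 181 and 173 CPM against 170, 186 and 166 CPM, SMS had a log2 fold change of 0.00 (SE 0.061) and SAT1 of -0.05 (SE 0.12), and SMOX, at 7.73, 7.04 and 8.23 CPM against 6.02, 3.98 and 7.32 CPM, had -0.41 (SE 0.19, edgeR adjusted p = 0.402).

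In RS4;11, 0 of the 10 genes passed with edgeR in either fit, where 0% of all genes passed with 12 libraries (325 at an unadjusted p under 0.05) and 0.317% without TOM-1 control replicate 3 (58 genes, 0.202% higher and 0.115% lower).

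**Figure D3:**
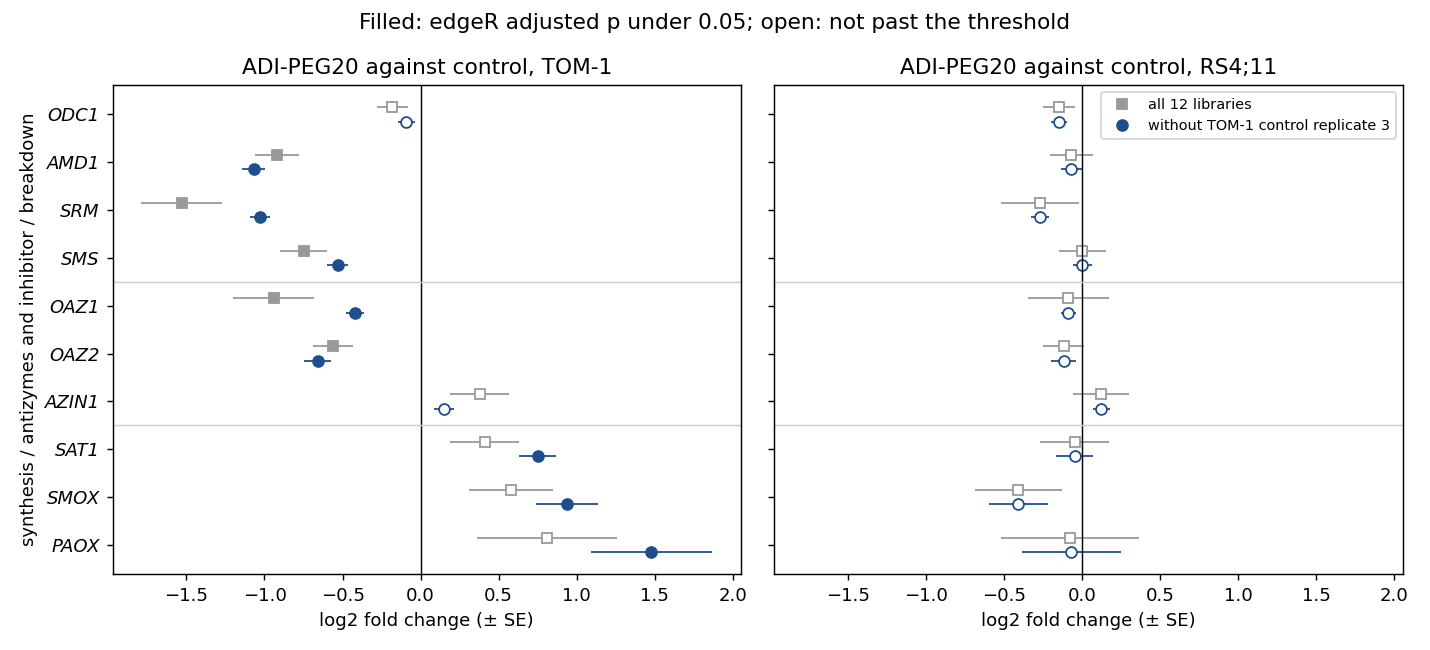
Log2 fold change of ADI-PEG20 against control (x axis, bars are ± SE) for each gene in TOM-1 and RS4;11, from edgeR with all 12 libraries (squares) and without TOM-1 control replicate 3 (circles). Filled symbols have an adjusted p under 0.05. In TOM-1 the synthetic enzymes AMD1, SRM and SMS and both antizymes lie left of 0 in both fits, and in RS4;11 every symbol is open.

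The effect of ADI-PEG20 differed between the lines for 3 of the 10 genes with all libraries, all more negative in TOM-1, where 11.9% of all genes differed, 6.05% with a more negative and 5.89% with a more positive effect in TOM-1. The difference of log2 fold changes, TOM-1 minus RS4;11, was -0.86 for AMD1 (edgeR adjusted p = 0.0158), -1.27 for SRM (0.0406) and -0.75 for SMS (0.0411). Without TOM-1 control replicate 3, 8 genes differed, 5 more negative and 3 more positive, where 30.4% of all genes did, 14.7% and 15.7%. The differences were then -1.0 for AMD1, -0.76 for SRM, -0.53 for SMS, -0.33 for OAZ1, -0.55 for OAZ2, 0.81 for SAT1, 1.35 for SMOX and 1.56 for PAOX, with edgeR adjusted p from 1.45e-07 (AMD1) to 0.0209 (PAOX). With all libraries the last 5 were -0.85, -0.45, 0.46, 0.98 and 0.88 in that order and did not pass. ODC1 and AZIN1 did not pass the test of the difference in either fit. For ODC1 it was -0.03 with all libraries (edgeR adjusted p = 0.954) and 0.05 without replicate 3 (edgeR adjusted p = 0.663). For AZIN1 it was 0.26 with all libraries (edgeR adjusted p = 0.585) and 0.03 without replicate 3 (edgeR adjusted p = 0.9). AMD1 differed in all 12 fits with 1 library left out. SRM and SMS differed in 3 of the 12, those that left out a TOM-1 control. Without any 1 of the treated TOM-1 or the RS4;11 libraries their edgeR adjusted p rose past the threshold, up to 0.0892 and 0.098.

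The lines also differed before treatment. In control culture SAT1 was higher in TOM-1 (log2 difference 1.45, edgeR adjusted p = 0.000286, and 1.10 without replicate 3), as were SMS (0.99, edgeR adjusted p = 0.000293, and 0.76) and ODC1 (0.33, edgeR adjusted p = 0.0264, and 0.24). SAT1 and SMS passed in all 12 fits with 1 library left out. ODC1 passed in 4 of 12, those without a TOM-1 control or without RS4;11 ADI-PEG20 replicate 1, and elsewhere its edgeR adjusted p rose up to 0.14. These 3 of 10 genes compare with 34.7% of all genes, 16.2% higher and 18.4% lower in TOM-1. Without replicate 3, 9 of 10 passed, 5 higher and 4 lower, where 52.8% of all genes passed, 25.4% higher and 27.5% lower. In the second fit AMD1 (0.21, against 0.07 with all libraries) and OAZ2 (0.28, against 0.19) were higher in TOM-1 as well. SRM (-0.93, against -0.42), AZIN1 (-0.21, against -0.44), PAOX (-1.36, against -0.68) and OAZ1 (-0.40) were lower. These passed with edgeR adjusted p up to 0.0262 without replicate 3 and did not pass with it.

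OAZ1 changed direction with that 1 library. It was at 664, 720 and 695 CPM in RS4;11 control, above replicates 1 and 2 of TOM-1 control (526 and 528 CPM) and below replicate 3 (1224 CPM). The log2 difference, TOM-1 minus RS4;11, was 0.13 with replicate 3 (edgeR adjusted p = 0.745) and -0.40 without it (edgeR adjusted p = 4.32e-06).

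Under ADI-PEG20, where replicate 3 does not enter the means compared, 6 of 10 genes differed between the lines with all libraries, 3 higher and 3 lower in TOM-1, where 47.2% of all genes did, 23.1% higher and 24% lower. Without it 9 of 10 differed, 4 higher and 5 lower, where 62.9% of all genes did, 31.4% higher and 31.5% lower. SAT1 at 58.6, 66.4 and 59.8 CPM in TOM-1 was far above RS4;11 at 15, 15.1 and 19 CPM (log2 difference 1.91, edgeR adjusted p = 2.45e-05). SMOX was higher in TOM-1 by 1.68 and SRM lower by -1.69, AMD1 by -0.79 and OAZ1 by -0.72. ODC1 was higher by 0.30 (edgeR adjusted p = 0.0317), a call that was lost when any 1 library other than TOM-1 control replicate 3 was left out (edgeR adjusted p up to 0.221). OAZ1 kept its call in 7 of those 12 fits and lost it without any 1 of the treated TOM-1 libraries or without RS4;11 ADI-PEG20 replicate 1 or 2 (edgeR adjusted p up to 0.0855), whereas SAT1, SMOX, SRM and AMD1 kept theirs in all 12. PAOX overlapped between the lines. These contrasts and the treatment effects share libraries, so they are not separate evidence.

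Other genes of the pathway were taken from lists of its substrates, cofactors, transport and regulators, and are described for TOM-1 with all libraries and then without replicate 3. Of 8 genes for S-adenosylmethionine supply and for salvage of methylthioadenosine, the by-product of SRM and SMS, 3 fell in both fits and none rose, where 15.9% and then 19.8% of all genes fell, with a list median of -0.19 and -0.18. MAT2A, which makes S-adenosylmethionine, was at 411, 427 and 155 CPM in controls and at 141, 145 and 153 CPM after ADI-PEG20. The groups did not overlap, but the third control lay close above the treated libraries. Its log2 fold change was -1.18 (edgeR adjusted p = 0.00762) and -1.52 without that control (edgeR adjusted p = 1.58e-13). MRI1 (-0.98 and -1.02) and ADI1 (-1.01 and -0.81), both enzymes of the salvage, passed in both fits. Of the exonic bases of MRI1, 31.2% overlap a gene on the other strand, as do 12.4% of MAT2A, and the use of strand in counting is not given in the sources used here.

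MTAP, which starts the salvage, did not pass in TOM-1 (-0.03, edgeR adjusted p = 0.95, and -0.20 without replicate 3, edgeR adjusted p = 0.334). It had 0 counts in all 6 RS4;11 libraries, against a mean of 28.8 CPM in TOM-1 control, so it was at least 218-fold lower in RS4;11 control by a limit of 3 counts per library.

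On the side of arginine and ornithine, 4 of 5 tested genes of 8 listed passed in TOM-1, 3 lower and 1 higher, and 4 of 6 passed without replicate 3, where 31.9% and then 41.6% of all genes passed. ALDH18A1, which leads from glutamate toward ornithine and proline, was at 226, 218 and 195 CPM in controls and at 107, 105 and 103 CPM after ADI-PEG20, with no overlap. Its log2 fold change was -1.03 (edgeR adjusted p = 4e-05) and -1.09 without replicate 3. OAT, which interconverts ornithine and glutamate semialdehyde, fell by 0.74 on the log2 scale (edgeR adjusted p = 0.04) and by 0.93 without replicate 3, and ASL, the second enzyme of arginine synthesis, fell by 0.73 and by 0.45.

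OAT also had 0 counts in every RS4;11 library, at least 230-fold below the TOM-1 control mean of 30.3 CPM. The gene called higher is ASS1, the first enzyme of arginine synthesis, at 0 CPM in all TOM-1 controls and at 0.599, 0.191 and 0 CPM after treatment. The groups overlapped at 0 and no fold is given. RS4;11 controls held ASS1 at 164, 180 and 140 CPM, so TOM-1 controls lay lower by at least 1318-fold. Arginase RNA was scarce: ARG1 had at most 13 counts and ARG2 at most 50 in a library, and ARG2 did not pass in either line.

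Hypusination puts the aminobutyl group of spermidine onto the translation factor eIF5A. Of 4 tested genes of 5 listed, 2 fell in TOM-1 in both fits, where 15.9% and then 19.8% of all genes fell, with a list median of -1.28 and of -0.89. EIF5A was at 501, 481 and 983 CPM in controls and at 206, 224 and 216 CPM after ADI-PEG20. No treated library came near a control. Its log2 fold change was -1.61 (edgeR adjusted p = 0.000304) and -1.19 without replicate 3 (edgeR adjusted p = 3.79e-13). EIF5AL1, a near-identical copy with at most 37 counts in a library, may share reads with it.

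DHPS, which carries out the first step of hypusination, fell from 9.01, 7.33 and 6.79 CPM to 3.9, 4.01 and 4.09 CPM (log2 fold change -0.95, edgeR adjusted p = 0.0104, and -1.04 without replicate 3, edgeR adjusted p = 0.0017), and 38.5% of its exonic bases lie under a second gene of the same strand.

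Of 6 tested genes of 10 listed for polyamine transport, 3 passed in TOM-1, 1 higher and 2 lower, and 4 passed without replicate 3, where 31.9% and then 41.6% of all genes passed. The list median was 0.60, opposite in sign to most calls, and it includes ATP13A4 and SLC12A8 with at most 43 counts in a library. SLC3A2, the heavy chain of amino acid transporters that has also been linked to polyamine export, was at 364, 369 and 701 CPM in controls and 1061, 1050.5 and 976 CPM after treatment. The treated libraries were all above the controls, with a log2 fold change of 1.11 (edgeR adjusted p = 0.00204) and 1.49 without replicate 3. ATP13A2, which exports polyamines from lysosomes, fell by 0.69 and by 0.50 on the log2 scale, and SLC18B1, a vesicular polyamine transporter of low level (0.865 to 4.46 CPM in TOM-1), by 1.11 and by 1.15.

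Of the regulators listed, MYC and NFE2L2 are described, and no result is given for the rest of that list. Both passed in TOM-1 in both fits, where 31.9% and then 41.6% of all genes passed. MYC, an activator of ODC1 transcription, was at 462, 426 and 490 CPM in controls and at 305, 289 and 279 CPM after ADI-PEG20. All treated libraries were lower. Its log2 fold change was -0.66 (edgeR adjusted p = 0.000452) and -0.61 without replicate 3, and in RS4;11 it was 0.00 (SE 0.098). NFE2L2, a regulator of SAT1, rose by 0.67 and 0.53. A second gene of the same strand covers 17.6% of the exonic bases of NFE2L2, and as much of ASL.

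The paralog AZIN2 and, of the other acetylation and oxidation genes, SAT2 were tested in both fits and SATL1 only without replicate 3, and none passed in TOM-1. OAZ3 and AOC1 had too few counts to be tested. In RS4;11 none of these lists gave a call with 12 libraries. Without TOM-1 control replicate 3, ASS1 rose (0.57, edgeR adjusted p = 0.0422) and DOHH, which completes hypusination and is named after its values were seen, fell by 0.58 (edgeR adjusted p = 0.0255).

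**Figure D4:**
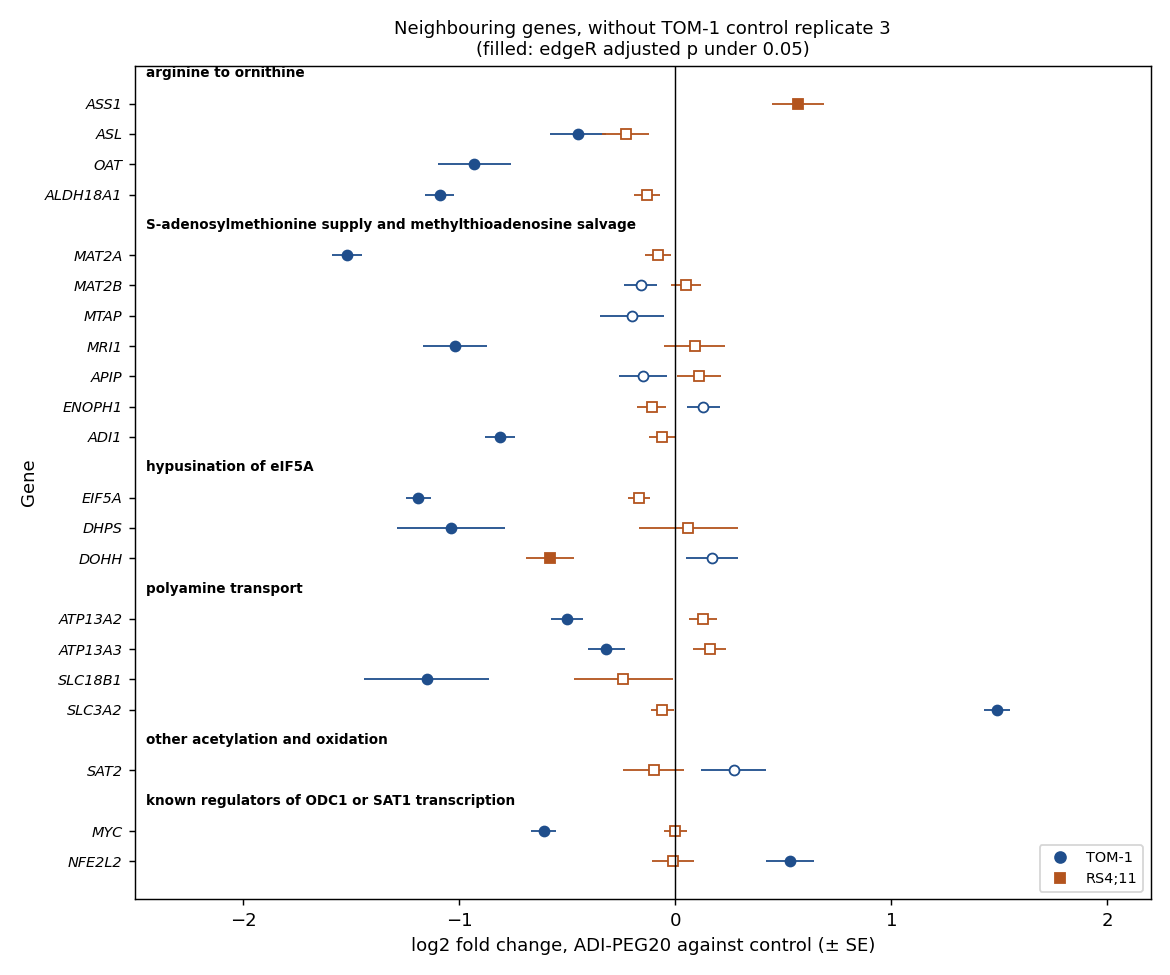
Log2 fold change of ADI-PEG20 against control (x axis, bars are ± SE), without TOM-1 control replicate 3, for genes of the pathway lists. Genes that reach a mean of 5 CPM in a group are drawn, with lines below 1 CPM left out. The 1 named gene without a result here is not drawn, and some drawn genes are not described in the text. Filled symbols have an edgeR adjusted p under 0.05. MAT2A, EIF5A, SLC18B1, ALDH18A1, DHPS and MRI1 lie beyond -1 in TOM-1 (circles) and nearer to 0 in RS4;11 (squares). SLC3A2 lies at 1.49 in TOM-1.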

How the data were processed

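Poly(A) RNA of 12 libraries was analysed from 1 table of raw counts per Ensembl gene, which the authors deposited without normalization. The submitters' processing notes name STAR, SAMtools, featureCounts and hg38; versions, roles, strand setting and annotation release are not given in the sources used here. Groups and replicate numbers came from the sample titles. The 10 members and the gene lists were chosen with earlier results of these data known.

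Counts were fitted in R 4.3.3 with edgeR 4.0.16: filterByExpr, TMM scaling, 1 group-means model over all 12 libraries, the quasi-likelihood F test, and Benjamini-Hochberg adjustment over all tested genes with a threshold of 0.05. The SE is the log2 fold change divided by the square root of F. Of the 60664 identifiers, 60463 had a symbol and 58396 were in GENCODE release 29. A gene at 0 was given a limit of 3 counts per library, which covers counting error only. Alternatives used DESeq2 1.42.0, limma 3.58.1 (voom), other scalings and filters, a replicate block, length offsets (lowess span 0.3) and left-out libraries. Data were simulated for ADI-PEG20 in TOM-1. Over 16352 genes edgeR recovered 49 of 100 genes changed 2-fold and 84 of 100 changed 4-fold, with 7 false calls. DESeq2, over 17348 genes, recovered 64 and 91 with 46 false calls. In the simulation only these genes changed and no library departed, so the rates need not hold for the data. No 2 libraries of a group agreed within sampling noise (lowest chi-square per degree of freedom 4.93). Beyond the 10 members, up to 4 genes of a list are named, those called in TOM-1 with and without control replicate 3 with the largest change first, and ARG1, ARG2, OAT, MTAP and MYC always. For 1 named gene no result is given here. Figures were drawn with matplotlib 3.10.9.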

Additional observations from a re-analysis of the deposited data

Results flagged for a closer look

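By the test of the difference with all 12 libraries (TOM-1 minus RS4;11, log2 scale), the effect of ADI-PEG20 differed for 3 polyamine enzymes. It also differed for 7 of the neighbouring genes named, where 11.9% of all genes differed. Most of the neighbouring genes were named because they passed in TOM-1 in both fits. The difference uses the same TOM-1 libraries, so their calls here are partly fixed by that choice. Among the enzymes the difference was -0.86 for AMD1 (edgeR adjusted p = 0.0158), -1.27 for SRM (edgeR adjusted p = 0.0406) and -0.75 for SMS (edgeR adjusted p = 0.0411). For salvage of methylthioadenosine it was -1.07 for MRI1 (edgeR adjusted p = 0.00548) and -0.94 for ADI1 (edgeR adjusted p = 0.0113). It was -1.43 for EIF5A (edgeR adjusted p = 0.0123), -0.89 for ALDH18A1 (edgeR adjusted p = 0.00298), -0.66 for MYC (edgeR adjusted p = 0.0101) and -0.83 for ATP13A2 (edgeR adjusted p = 0.0206). SLC3A2 alone of these had a more positive effect in TOM-1, by 1.16 (edgeR adjusted p = 0.0253). The TOM-1 side of each difference includes control replicate 3. Without it the 10 differences ran from -1.11 (MRI1) to 1.54 (SLC3A2) and each passed the test, where 30.4% of all genes did. These 10 are given because they passed this same test with all 12 libraries. The second fit reuses the remaining libraries, so its calls are largely fixed by that choice and are not separate support.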

How the results depend on the processing

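Of 750 values recomputed with libraries left out, alone or together with the block or DESeq2, 617 kept their direction and side of the threshold. Under the other settings 395 of 440 did so. With 1 library left out and the other settings kept, 4 to 8 polyamine genes were called in TOM-1 (5 with all libraries). The number ran from 1 to 8 for the difference between the lines (3 with all) and from 2 to 9 in control culture (3 with all). Under ADI-PEG20 it ran from 4 to 9 (6 with all), and in RS4;11 it was 0. The share of all genes called in these fits ran from 21.7% to 41.6% in TOM-1 and from 6.39% to 30.4% for the difference. It ran from 25.7% to 52.8% in control culture, from 37.4% to 62.9% under ADI-PEG20 and from 0% to 0.317% in RS4;11. Limma voom with sample quality weights, like the next settings chosen after seeing the data, gave 8 in TOM-1, 8 for the difference and 9 in control culture. Of all genes, voom called 48.6%, 33.8% and 57.9% in that order. Length offsets gave 5 in control culture, where they called 37.2% of all genes. Without TOM-1 control replicate 3, DESeq2 called 8 in TOM-1, 1 in RS4;11 (SRM), 8 for the difference and 9 in control culture. Of all genes it called 38.2%, 4.94%, 32.1% and 46.4% in that order. OAZ1 in control culture, TOM-1 minus RS4;11, was 0.13 with all libraries and ran from -0.40 to 0.30 with 1 left out, negative only without TOM-1 control replicate 3; it was -0.38 with voom, and -0.41 and -0.42 without it under the block and under DESeq2.

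Equal replicate numbers did not pair the libraries (correlations of deviations from -0.062 to 0.145). With the replicate block, 5 genes were called in TOM-1 and 1 for the difference between the lines, where 30.7% and 11.2% of all genes were. Without TOM-1 control replicate 3 the block gave 9 in TOM-1 (AZIN1 among them, 0.17, edgeR adjusted p = 0.0109) and 1 in RS4;11 (SRM, -0.27, edgeR adjusted p = 0.0183). It gave 8 for the difference and 9 in control culture. The shares of all genes were then 41.8% in TOM-1, 1.14% in RS4;11, 31.2% for the difference and 52.7% in control culture.

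Over all genes, the calls in TOM-1 were 5527, against 2639 in a fit on its 6 libraries alone and 8434 with voom. For the difference they were 2072, against 5567 without TOM-1 control replicate 3, 3228 with DESeq2 and 1169 without RS4;11 ADI-PEG20 replicate 1. In control culture they were 6014, against 9681 without replicate 3 and 3548 on its own 6 libraries. A fit on the contrast's libraries alone was not run for the difference, which uses all 12. PAOX, at 34 to 107 counts in TOM-1, had the fewest counts of the 10 genes.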

Other observations

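The genes whose profile over the 12 libraries lay closest to ODC1 were SURF4, SPCS2, TOP3A, XPO6 and MFSD11, by the root mean square difference of centred log2 CPM, which was 0.0592 for SURF4 and 0.0744 for MFSD11 against a median of 0.489 over 10541 genes. These are genes that, like ODC1, moved little. For SAT1 the closest were SPON2 (0.158), NECTIN2, SNHG15, MPG and PLIN2 (0.195), against a median of 0.98. All of these libraries enter the measure, TOM-1 control replicate 3 included. Pseudogene rows named after the 10 members held at most 28 counts in a library.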
